A study of Mus musculus with 32 samples.

Results

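The 7 female libraries of repopulated spinal cord microglia, 4 from mice with a fracture and 3 from mice without one, were compared with each other. They were taken from 32 libraries in all by their labels, repopulated state and fracture state, in the table of 15 female libraries. Their cells were sorted from mice of the genotype Cx3Cr1-Cre;Rosa26-iDTR that had been depleted of their original microglia, at a time labelled day 14. In such mice a Cre recombinase, activated by tamoxifen, makes cells with Cx3cr1 sensitive to diphtheria toxin, the toxin then kills these cells for a time, and new microglia fill the tissue. Tamoxifen, toxin and depletion were therefore shared by fractured and unfractured mice. Other cells that express Cx3cr1, such as blood monocytes and border macrophages, can also carry the receptor. The 8 female libraries labelled as not depleted, 4 with and 4 without fracture, are called resident. A short description calls those 8 Wt, but they carry the same genotype entry. Male repopulated libraries, 7 with and 2 without fracture, lie in a separate table made with another library kit. That table also holds male resident libraries, 5 with and 3 without fracture. The labels do not say whether each library is 1 animal or a pool, so p-values measure the spread between these libraries, which may be partly technical.

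Microglia are the resident macrophages of the central nervous system. At rest they survey the tissue with purine receptors such as P2ry12 and depend on TGF-beta and on the receptor Csf1r. In injury or degeneration they lower these homeostatic genes and raise genes of lipid handling, lysosomes and antigen presentation, and type I interferon switches on a further set of antiviral genes through a complex that holds STAT2 and IRF9. Spinal microglia are studied in pain after peripheral injury, and the series concerns repopulated microglia and the resolution of pain.

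The 7 libraries held 16438827 to 18506700 estimated counts each. All 24 homeostatic microglial genes looked for were listed, with P2ry12 at 3908, 3705, 4394 and 3162 CPM (counts scaled to library size with TMM factors) with fracture and 2781, 3114 and 3098 CPM without. Between libraries, log2 CPM correlated at 0.907 to 0.953. Replicate 1 without fracture stood farthest from the others (mean r 0.922), followed by fracture replicate 1 (0.932), so results that rest on them are also given without both. Along the first principal component, which held 30.3% of the variance, the fracture libraries lay at 45.4, 24.7, 31.4 and 13.7 and those without fracture at −76, −33.6 and −5.51.

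No gene passed the test that used the spread of all 15 female libraries. Of 13377 genes, 0 (0%) had an adjusted p below 0.05 in edgeR (quasi-likelihood test, Benjamini-Hochberg adjustment over all genes), and the smallest adjusted p was 0.222. At an unadjusted p under 0.05 there were 1410 genes (10.5%), 729 higher (5.45%) and 681 lower (5.09%) with fracture. DESeq2 on the same libraries called 90 genes (0.673%), 51 higher (0.381%) and 39 lower (0.292%). In a fit of the 7 repopulated libraries alone, edgeR called 86 of 13256 genes (0.649%), 50 higher (0.377%) and 36 lower (0.272%), and DESeq2 on the same 7 called 628 (4.74%). Of these 86, 16 were also among the 90. The smaller fit was unstable: without both libraries numbered 1 it called 0 genes, with 1263 at an unadjusted p under 0.05. Leaving out 1 library at a time gave 43, 5 and 448 calls without replicates 1, 2 and 3 of the unfractured group, and 14, 54, 10 and 229 without fracture replicates 1 to 4. Calls from the smaller fit are therefore named below as such, beside the result of the 15-library fit. The median log2 difference of all genes was −0.01. A complete separation of 4 from 3 libraries has an exact two-sided permutation p of 0.0571, the smallest this design allows for 1 gene.

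**Figure D1:**
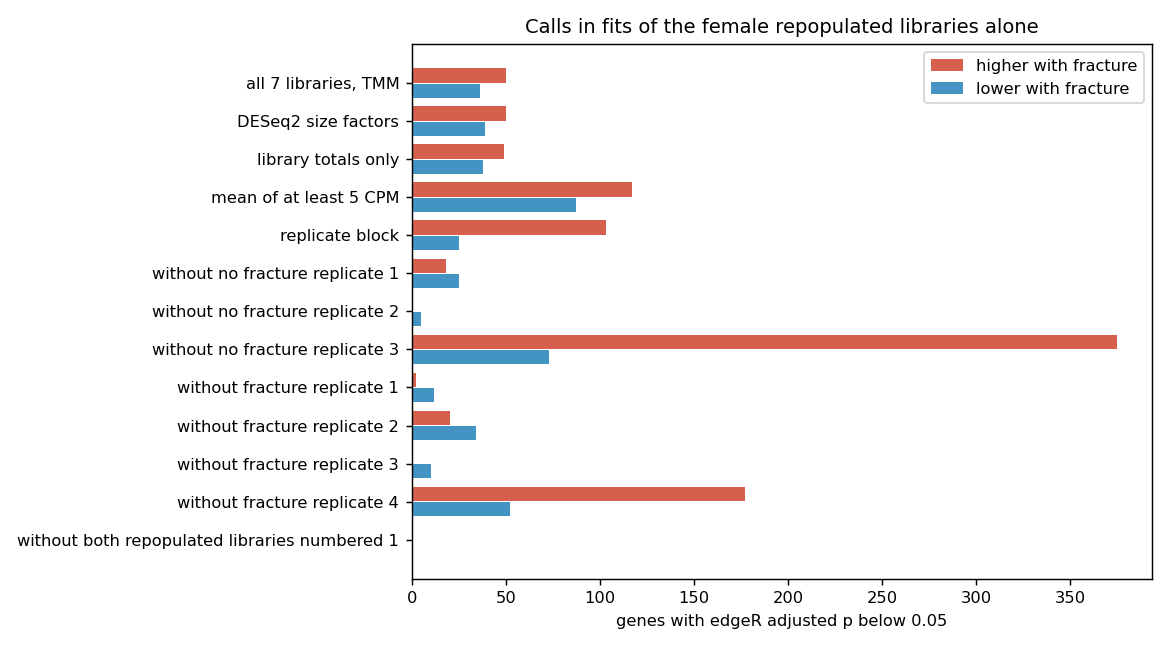
Number of genes with an edgeR adjusted p below 0.05 (x axis) in fits of the female repopulated libraries alone, one pair of bars per setting (y axis), red for higher and blue for lower with fracture. The count with all 7 libraries was 50 higher and 36 lower, reached 375 and 73 without replicate 3 of the unfractured group, and was 0 without both libraries numbered 1.

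Interferon response genes stood lower with fracture as a group. Of 32 listed, all 32 had negative log2 differences, as had 51.1% of all genes, and their median was −0.69 against −0.01 over all genes. In 26 of them (81.2%) every fracture library was below every library without fracture, against 6.2% of all genes. By the 15-library fit 0 passed and 17 had an unadjusted p under 0.05, all lower, against 5.09% of all genes. The 7-library fit called 11 lower (0.272% of all genes), or 3 to 14 leaving out 1 library, and DESeq2 over 15 libraries 1, Stat2 (0.292%). The mean log2 CPM of the list was 6.64, 6.78, 6.44 and 6.63 in the fracture libraries, against 7.18, 7.45 and 7.28 in those without. Without both libraries numbered 1 the median was −0.74, all 32 differences stayed negative and 29 did not overlap, against 12.8% of all genes lower in this way with 5 libraries, and the smaller fit called 0 of the list. In bulk RNA, fewer cells with high interferon gene levels and less RNA per cell cannot be told apart.

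Many interferon-induced genes carry a promoter element, the interferon-stimulated response element, that the complex of STAT2 and IRF9 binds. Its core was searched as GAAANNGAAA on both strands (reverse complement TTTCNNTTTC, overlapping matches included) in windows from 250 bases before to 50 bases after RefSeq gene starts. Of 32851 such windows, 3.44% held it. Windows were found for 22 of the 32 interferon genes, and 16 of their 25 windows (64%) held it. Stretches of 80 bases upstream of the start are shown for Isg15, Oas1a, Stat2 and Ifit3, which the values below turn on, 5′ to 3′ on the strand of the gene, with matches in capitals.
Isg15 (GRCm38.p6, chr4:156200837-156200916, minus strand): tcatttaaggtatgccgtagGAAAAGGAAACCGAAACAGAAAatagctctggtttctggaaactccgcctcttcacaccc
Oas1a (chr5:120907526-120907605, minus strand): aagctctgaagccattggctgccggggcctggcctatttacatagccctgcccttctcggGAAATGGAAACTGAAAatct
Stat2 (chr10:128270256-128270335, plus strand): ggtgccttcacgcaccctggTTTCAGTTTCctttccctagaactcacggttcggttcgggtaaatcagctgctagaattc
Ifit3 (chr19:34583353-34583432, plus strand): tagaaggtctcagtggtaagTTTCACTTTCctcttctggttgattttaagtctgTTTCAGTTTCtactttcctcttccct
Isg15 held 3 overlapping matches, Oas1a 2 overlapping matches, Stat2 1 and Ifit3 2 separate ones. The Ifit3b stretch reads the same as that of Ifit3, its near-identical copy, so reads of the 2 genes may have been split between them. The sequence from the RefSeq start on was found in GENCODE M21 transcripts of Isg15, but not in those of Oas1a, Stat2 and Ifit3. Their start sites are therefore less certain. A match describes letters in these windows and does not show that a factor binds there.

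Stat2 (chr10), a transducer of interferon receptors, had 168, 181, 148 and 210 CPM with fracture and 311, 329 and 300 CPM without. The groups were separate, with a log2 difference of −0.83 ± 0.21 SE (edgeR adjusted p = 0.306 in the 15-library fit and 0.0156 in the 7-library fit; DESeq2 0.0224). Irf9, the DNA-binding subunit of the complex, differed less, by −0.33 ± 0.11, with 158 to 183 CPM in fracture libraries and 212 to 218 CPM in the others. Irf7 (chr7:141262706-141266481), the factor that amplifies interferon production, had 223, 278, 191 and 261 CPM with fracture and 499, 480 and 466 CPM without. Its log2 difference of −1.02 ± 0.41 was the lowest of the list (edgeR adjusted p = 0.434, and 0.00932 in the 7-library fit).

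Antiviral effectors followed the same order. Oas2, a synthetase of the RNA-degrading 2-5A pathway, had 177, 171, 154 and 171 CPM with fracture, against 287, 281 and 251 CPM without. The related Oas1a had 134, 128, 117 and 146 CPM with fracture and 200, 218 and 198 CPM without. Isg15, a ubiquitin-like modifier, lay at 17.6, 16.6, 17.1 and 18.2 CPM in the fracture libraries and at 24.5, 35.1 and 30.6 CPM in the rest (log2 difference −0.79 ± 0.27). For these 3 genes the groups did not overlap, and the 7-library fit called Oas2 and Oas1a but not Isg15 (edgeR adjusted p = 0.0658). Ifit3, which binds viral RNA with its family, had 244, 253, 192 and 207 CPM with fracture and 309, 476 and 373 CPM without (−0.78 ± 0.3). Rsad2, Mx2, Ifit1, Ddx58, Ifi44 and Cxcl10 were the 6 members whose groups overlapped. Besides the list, the 7-library fit called the family members Ifi213, Ifi206, Oas1g and Oas3, the helicase gene Dhx58, Slfn5, Sp100 and the exonuclease gene Trex1 lower, genes chosen after their values were seen. Members of the Ifi, Ifit and Oas families have near-identical copies, so their single values are uncertain.

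The spread of this list differed by group. Its median SD of log2 CPM was 0.208 in repopulated libraries with fracture and 0.149 without, against 0.514 and 0.617 in resident libraries with and without fracture. Over all genes these SDs were 0.266 and 0.266 in repopulated and 0.222 and 0.31 in resident libraries. The 15-library fit shares 1 estimate of spread per gene over all 4 groups, and the 7-library fit does not include the resident libraries.

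In resident microglia the same list had a median of −0.73, with 32 of 32 negative (52.1% of all genes) and 25 at an unadjusted p under 0.05, against 3.45% of all genes lower at that level. In 2 of the 32 the groups did not overlap, against 1.78% of all genes lower in this way, and resident libraries with fracture had list means of 5.39, 5.97, 6.28 and 6.36 and those without 7.39, 6, 7.12 and 6.35. The difference of the fracture effects, repopulated minus resident, had a median of 0.09 and 0 members at an unadjusted p under 0.05. In male repopulated microglia 31 of 32 were negative (48% of all genes) with a median of −0.63, and 5 were lower at an unadjusted p under 0.05, against 3.73% of all genes. Male repopulated fracture libraries ran from 4.97 to 6.97 with a median of 5.89. Of these 7, 5 lay below both male repopulated libraries without fracture (6.98 and 6.76), while replicates 6 and 7 (6.97 and 6.96) did not. In male resident libraries the list went the other way. Its means were 4 to 4.7 in 5 libraries with fracture and 3.33 to 3.95 in 3 without, a difference that was not tested.

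**Figure D2:**
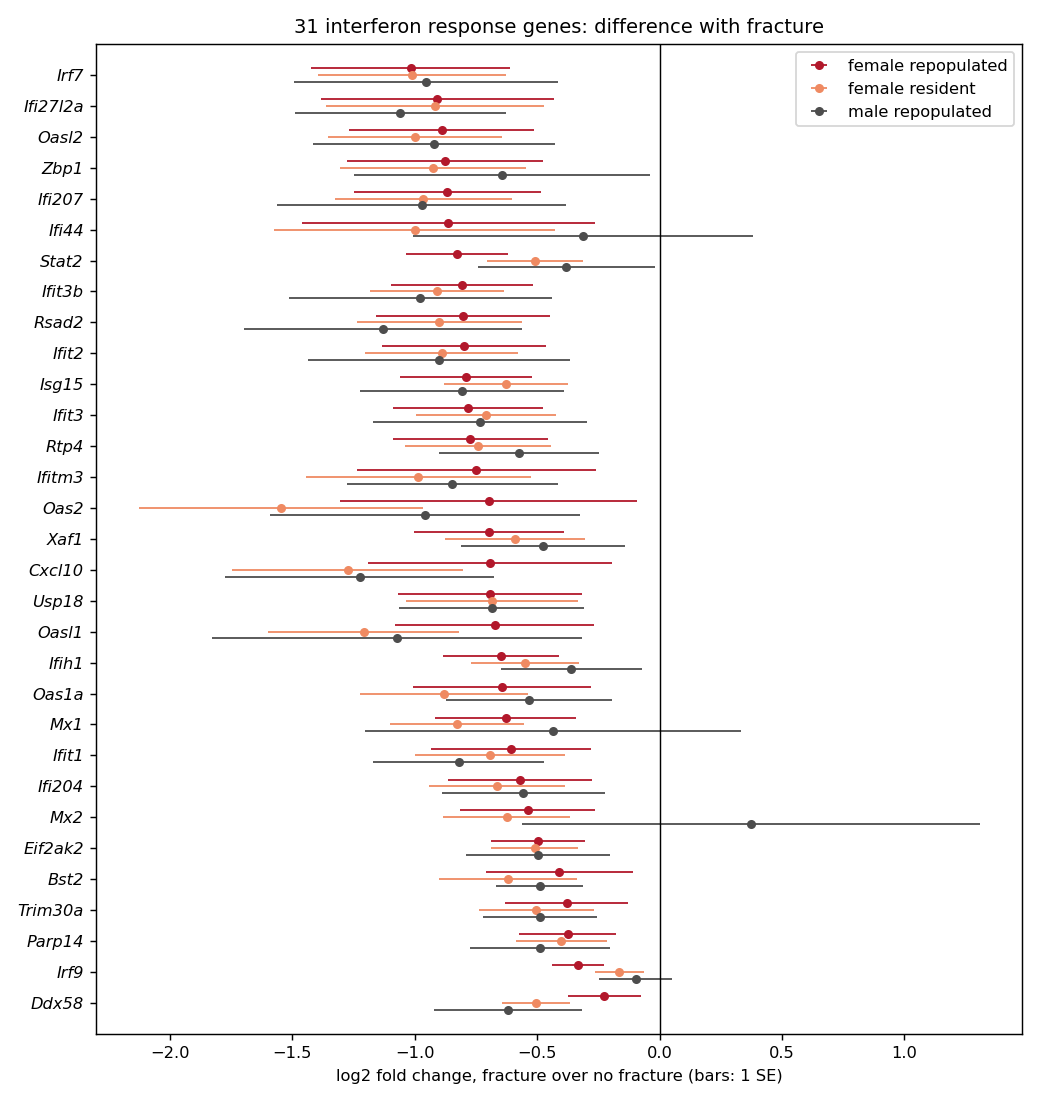
Log2 fold change of fracture over no fracture (x axis) for 31 of the 32 interferon response genes (y axis), with bars of 1 SE, in female repopulated (dark red), female resident (orange) and male repopulated microglia (grey). All 31 lie below 0 in both female comparisons, and 30 do in males.

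Blood monocytes carry interferon genes too, so their markers are given here. Of 8 monocyte markers 4 were listed, and the defining markers Ly6c2, Ccr2 and Chil3 were not. The summed level of the 4 was 12.7 to 19.9 CPM with fracture and 36.8 to 54.5 CPM without, without overlap. Most of it was Itgal, an integrin subunit of leukocytes, at 16.4, 6.83, 11.4 and 8.31 CPM with fracture and 32.4, 33.6 and 46.1 CPM without (log2 difference −1.8 ± 0.47; edgeR adjusted p = 0.306, and 0.0258 in the 7-library fit; DESeq2 0.0254). Plac8 averaged 2.49 CPM with fracture and 6.28 CPM without. Of the 4 markers, 3 were lower with fracture and 1 was higher, by a log2 difference of 0.25. Only 1 of the 4, Itgal, had groups that did not overlap. Whether blood monocytes have a part in the interferon difference was not tested.

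Antigen presentation genes, many of them interferon targets, lay partly in the same direction. Of 21 listed, 17 were negative with a median of −0.23, and 0 passed in the 15-library fit. Of the list, 8 (38.1%) were lower without overlap, against 6.2% of all genes, and 3 were lower at an unadjusted p under 0.05, against 5.09%. The 7-library fit called H2-K1, H2-T23 and Tap1 lower (0.272% of all genes). Tap1, a subunit of the pump that carries peptides to be loaded onto class I molecules, had 187, 225, 162 and 198 CPM with fracture and 298, 324 and 287 CPM without. H2-K1, a class I heavy chain, had 2317, 2949, 2298 and 2259 CPM with fracture, against 3598, 3403 and 3360 CPM without. Both sets of libraries stood apart for these class I genes. Cd74, the invariant chain of class II, overlapped at 185, 295, 219 and 180 CPM with fracture and 454, 300 and 260 CPM without (−0.62 ± 0.49, and −0.34 without replicate 1 of the unfractured group). In resident microglia 19 of 21 were negative, with a median of −0.5. At an unadjusted p under 0.05, 10 were lower there, against 3.45% of all genes. The difference of the fracture effects, repopulated minus resident, had a median of 0.18 and 0 members at an unadjusted p under 0.05. In males 18 of 21 were negative, with a median of −0.55 and 8 lower at an unadjusted p under 0.05, against 3.73% of all genes.

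Homeostatic microglial genes stood slightly higher with fracture. Of 24, 22 were positive, against 48.9% of all genes, with a median of 0.15, and 8 (33.3%) were higher without overlap, against 6.81% of all genes. None passed in the 15-library fit and 7 had an unadjusted p under 0.05, all higher, against 5.45% of all genes. Without both libraries numbered 1 the median was 0.11. The 7-library fit called Olfml3, Slc2a5, Fcrls and P2ry13 higher (0.377% of all genes), and DESeq2 over 15 libraries Olfml3 and Slc2a5 (0.381%). Olfml3 (chr3), a secreted glycoprotein of microglia, had 3306, 3193, 3430 and 3542 CPM with fracture and 2710, 2353 and 2655 CPM without (0.39 ± 0.08; edgeR adjusted p = 0.264). Slc2a5 (chr4), the fructose transporter, had 488, 480, 485 and 616 CPM with fracture and 321, 337 and 351 CPM without (0.62 ± 0.16; edgeR adjusted p = 0.306, and 0.0191 in the 7-library fit). P2ry13, an ADP receptor, had 1902, 1789, 2147 and 1799 CPM with fracture and 1384, 1563 and 1459 CPM without. In each of these 3 genes the groups were separate.

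The Fc receptor-like gene Fcrls had 1102 to 1379 CPM with fracture and 789 to 877 CPM without, and the ectonucleotidase gene Entpd1 643 to 669 and 538 to 580 CPM. P2ry12 differed by 0.34 ± 0.16 with its groups just apart, while Tmem119 at 0.13 ± 0.08 and the fractalkine receptor gene Cx3cr1 at 0.06 ± 0.09 overlapped. Leaving out 1 library gave 0.067 to 0.17 for Tmem119 and 0.021 to 0.099 for Cx3cr1. Cst3, the abundant protease inhibitor cystatin C and not a member of the list, had 18710, 19520, 18590 and 18800 CPM with fracture and 15970, 16590 and 16080 CPM without, and was called in the 7-library fit (edgeR adjusted p = 0.024). It was named after its values were seen. In resident microglia 17 of 24 were positive, with a homeostatic median of 0.06. There 0 members were without overlap, against 1.31% of all genes higher in this way. The difference of the fracture effects, repopulated minus resident, had a median of 0.08. For that difference 2 members had an unadjusted p under 0.05, against 3.69% of all genes. In males 17 of 24 were positive, with a median of 0.15 and 10 higher at an unadjusted p under 0.05 against 4.57% of all genes. P2ry12 was among these 10, at a log2 difference of 0.55.

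**Figure D3:**
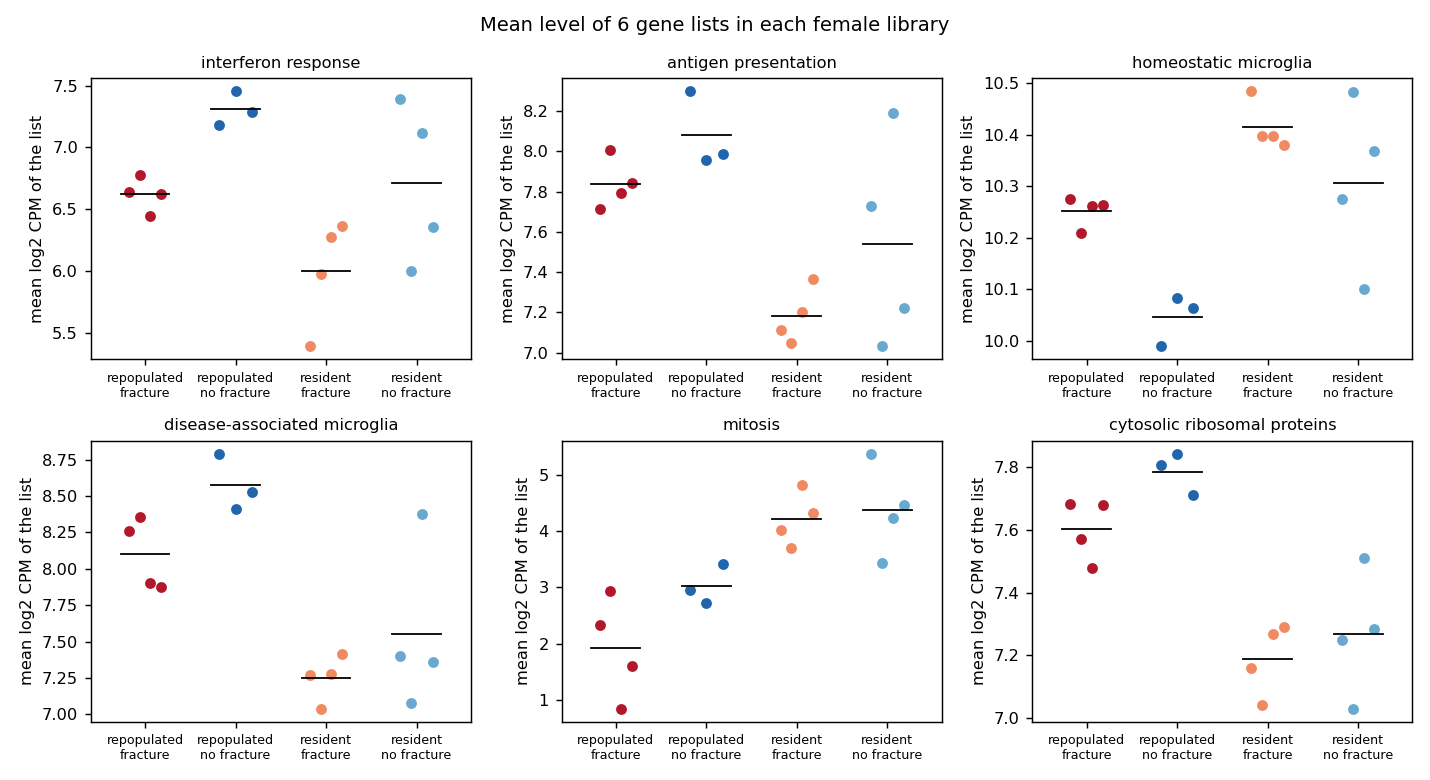
Mean log2 CPM of the listed members of 6 gene lists (y axes) in each female library, by group (x axes), with lines at the group means. Interferon means were 6.44 to 6.78 with fracture and 7.18 to 7.45 without in repopulated libraries, homeostatic means 10.21 to 10.28 and 9.99 to 10.08, and the resident groups of the interferon list overlapped.

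Genes of disease-associated microglia, a state reached through Trem2 in degeneration, were mostly lower with fracture. Of 25, 21 were negative with a median of −0.34, and 0 passed. Of the list, 11 (44%) were lower without overlap, against 6.2% of all genes, and 4 were lower at an unadjusted p under 0.05, against 5.09%. Axl (chr7:25757273-25788705), a receptor for dying cells, had 792, 898, 735 and 686 CPM with fracture and 1558, 1390 and 1349 CPM without, a difference of −0.88 ± 0.43 (edgeR adjusted p = 0.493, and 0.00652 in the 7-library fit). Csf1, a ligand of Csf1r, had 65.8, 65.2, 44 and 57.2 CPM with fracture and 89.3, 121 and 104 CPM without (−0.85 ± 0.33; edgeR adjusted p = 0.423, and 0.0463 in the 7-library fit). Cd52 was the other member called there, lower as were 0.272% of all genes. Lgals3, the lectin galectin-3, had 18.4, 13.6, 8.52 and 3.75 CPM with fracture and 35.3, 37.3 and 26.7 CPM without (−1.58 ± 0.54). In each of these genes every fracture library lay below every library without fracture.

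Apoe and Trem2 overlapped between the groups. Apoe, the lipid carrier, had 8719, 4988, 4338 and 8285 CPM with fracture and 12460, 5002 and 8765 CPM without, a difference of −0.41 ± 0.57. It was −0.06 without replicate 1 and −0.69 without replicate 2 of the unfractured group. Trem2 differed by −0.04 ± 0.06, and by 0.0018 without both libraries numbered 1. Without those libraries the list's median was −0.26, with 17 of 25 negative. In resident microglia 23 of 25 were negative, with a median of −0.28. At an unadjusted p under 0.05, 3 were lower there, against 3.45% of all genes. The difference of the fracture effects, repopulated minus resident, had a median of −0.0076 and 0 members at an unadjusted p under 0.05. In males 21 of 23 were negative, with a median of −0.5 and 14 lower at an unadjusted p under 0.05, against 3.73% of all genes.

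Lysosome and phagocytosis genes had a median of −0.11, with 22 of 32 negative and 0 passing. Of the list, 11 (34.4%) were lower without overlap, against 6.2% of all genes. At an unadjusted p under 0.05, 8 were lower, against 5.09% of all genes, and 1 higher, against 5.45%. The median was −0.06 without replicate 1 of the unfractured group and −0.05 without both libraries numbered 1. Psap, the precursor of saposins that help to degrade sphingolipids, had 6839, 7117, 6360 and 6240 CPM with fracture and 9526, 8529 and 8521 CPM without (−0.42 ± 0.12; edgeR adjusted p = 0.339, and 0.0179 in the 7-library fit). The protease gene Ctsb had 6982, 7412, 6554 and 6571 CPM with fracture, against 10150, 8543 and 8255 CPM without. Tfeb, the factor that drives lysosomal genes, went the other way, with 45.3 to 53.8 CPM with fracture and 23.4 to 36.9 CPM without. In resident microglia the list's median was −0.07, with 25 of 32 negative, against 52.1% of all genes. The difference of the fracture effects, repopulated minus resident, had a median of −0.02. In males the median was −0.18 and 15 of 32 were lower at an unadjusted p under 0.05, against 3.73% of all genes.

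Of 27 genes of cholesterol and lipid handling, 21 were negative, with a median of −0.21, and 0 passed. Of the list, 4 (14.8%) were lower without overlap, against 6.2% of all genes, and 5 were lower at an unadjusted p under 0.05, against 5.09%. In resident microglia the list's median was 0.0086, with 16 of 27 positive. The difference of the fracture effects, repopulated minus resident, had a median of −0.17. For that difference 1 of 27 had an unadjusted p under 0.05, near the 3.69% of all genes, so the 2 effects were not shown to differ. The median in repopulated microglia was −0.11 without replicate 3 of the unfractured group. Abcg1 (chr17:31057675-31117988), a cholesterol exporter, had 94.3, 102.3, 80.8 and 103 CPM with fracture and 141, 128 and 143 CPM without (−0.53 ± 0.11; edgeR adjusted p = 0.264; DESeq2 0.0175). The lipoprotein receptor gene Lrp1 had 639 to 728 CPM with fracture and 771 to 864 CPM without, and the lipid droplet gene Plin2 37.5 to 48.2 and 53 to 64.2 CPM. Abcg1 differed by −0.27 ± 0.11 in resident and by −0.45 in male repopulated microglia.

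Mitosis genes were few in counts, and their groups mostly overlapped. All 25 listed were negative with a median of −0.78, but the 2 (8%) lower without overlap were near the 6.2% of all genes. At an unadjusted p under 0.05, 6 were lower, against 5.09% of all genes, and 0 passed. DESeq2 called Kif18b, a mitotic kinesin, lower (0.292% of all genes). The mean log2 CPM of the list was 2.34, 2.93, 0.83 and 1.6 with fracture, against 2.96, 2.72 and 3.41 without, so the groups overlapped through fracture replicate 2. Mki67, a protein of dividing cells, had 5.61, 13.3, 4.91 and 2.25 CPM with fracture and 21.8, 20.2 and 26.5 CPM without (−1.8 ± 0.52; edgeR adjusted p = 0.339). Aurkb, a mitotic kinase, overlapped at 2.27, 8.6, 2.12 and 3.46 CPM with fracture and 11, 6.71 and 11.8 CPM without. The list's median ran from −1.17 without fracture replicate 2 to −0.55 without replicate 3 of the unfractured group. In resident microglia it was −0.33 and in males −0.47. Genes of DNA replication had a median of −0.02, with 12 of 23 negative, and −0.13 to 0.15 leaving out 1 library.

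Ribosomal protein genes were lower by a small amount. Of 30, 29 were negative with a median of −0.18, and 0 passed. Of the list, 11 (36.7%) were lower without overlap, against 6.2% of all genes, and 7 were lower at an unadjusted p under 0.05, against 5.09%. Rpl8 had 111, 102.5, 98.1 and 113 CPM with fracture and 131, 131 and 132 CPM without. All ribosomal protein genes together took 1.39, 1.29, 1.25 and 1.42% of counts with fracture and 1.48, 1.53 and 1.41% without. In males 30 of 30 were negative, with a median of −0.26 and 14 lower at an unadjusted p under 0.05, against 3.73% of all genes. In resident microglia the median was −0.09.

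By sign, genes tied to inflammation and pain showed little common direction. Of 25 cytokine and NF-kB genes, 15 were negative (median −0.12, or −0.08 to −0.04 leaving out 1 library). The 1 at an unadjusted p under 0.05, lower as 5.09% of all genes were, was Nfkb2, with 66.4 to 80.4 CPM with fracture and 89 to 97.2 CPM without. Il1b overlapped at 2.95, 18.8, 6.84 and 3.41 CPM with fracture and 7, 11.2 and 13.5 CPM without, as did Tnf at 8.15 to 10.2 and 10 to 13.7 CPM. The pain list had a median of −0.01, with 12 of 23 negative. Its mean log2 CPM was still lower with fracture, at 7.28 to 7.51 against 7.58 to 7.65 without, and did not overlap. At an unadjusted p under 0.05, 3 were lower, against 5.09% of all genes, and 0 higher. Without overlap, 7 (30.4%) were lower, against 6.2% of all genes, and 2 (8.7%) higher, near the 6.81% of all genes. P2rx4, the ATP-gated channel studied in neuropathic pain, had 333, 347, 300 and 355 CPM with fracture and 435, 371 and 374 CPM without (−0.24 ± 0.12, and −0.15 without replicate 1 of the unfractured group; edgeR adjusted p = 0.511). The platelet-activating factor receptor gene Ptafr had 81.6 to 118 CPM with fracture and 123 to 131 CPM without. Ctss, the protease that releases fractalkine, differed by −0.18 ± 0.09. The transcripts of Bdnf and Il10 were not among those listed.

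The remaining programs had medians between −0.16 and 0.07. Of 16 complement and Fc receptor genes, 11 were positive (median 0.05, but −0.022 without fracture replicate 4). Without overlap, 4 of the 16 (25%) were higher, against 6.81% of all genes, and 2 lower, against 6.2%. The chemokine list had a median of −0.16 over 17 genes, −0.55 without fracture replicate 2 and −0.04 without fracture replicate 4. Of the 17, 4 (23.5%) were lower without overlap, against 6.2% of all genes. Among 26 heat shock and unfolded protein genes, 18 were positive (median 0.07, or 0.04 to 0.11 leaving out 1 library). Of the 26, 5 (19.2%) were higher without overlap, against 6.81% of all genes. Creld2, of the endoplasmic reticulum, had 65.7 to 77.2 CPM with fracture and 35.3 to 55.2 CPM without. Glycolysis genes had a median of −0.12 over 22, with 5 (22.7%) lower without overlap, against 6.2% of all genes. Nuclear respiratory chain genes also had −0.12, over 28, with 1 (3.57%) lower without overlap, below the 6.2% of all genes. The median was −0.09 over 13 mitochondrially encoded ones, but 0.019 without fracture replicate 4. It was −0.07 over 24 immediate-early genes, but 0.0097 without replicate 3 of the unfractured group. TGF-beta genes had a median of 0.01 over 15 (−0.0061 to 0.075 leaving out 1 library), and Smad3, which carries the TGF-beta signal, was called higher in the 7-library fit, at 78.2, 88.5, 93.8 and 62 CPM with fracture and 36.8, 34.5 and 40.5 CPM without (edgeR adjusted p = 0.0156). The anti-inflammatory list had a median of −0.01 over 18 (−0.039 to 0.004 leaving out 1 library). Of these 9 lists, 0 members passed in the 15-library fit, and DESeq2 called 0.

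The glucocorticoid list held 10 genes, with a median of −0.06, or −0.22 to 0.22 leaving out 1 library, and members on both sides. Nr3c1, the glucocorticoid receptor, had 160, 148, 147 and 151 CPM with fracture and 76.7, 89.8 and 124 CPM without (0.65 ± 0.15; edgeR adjusted p = 0.289; DESeq2 0.0231). Cdkn1a, the cell cycle inhibitor p21, had 27, 36.9, 32.1 and 26.6 CPM with fracture and 47, 53.3 and 58.9 CPM without (−0.79 ± 0.18; edgeR adjusted p = 0.264; DESeq2 0.0202). Mt1, a metal-binding protein, had 36.4 to 43.8 CPM with fracture and 51.6 to 61.7 CPM without. All 3 were separate between the groups.

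Among single genes, the smallest p-values belonged to genes of many functions. Meis3 (chr7:16175090-16186504), a homeobox factor, had 41.1, 46, 38.9 and 41.9 CPM with fracture and 57.6, 67.5 and 65.3 CPM without (−0.6 ± 0.11; edgeR adjusted p = 0.222; DESeq2 0.00334). Aktip (chr8:91111784-91199976), of a complex that links vesicles to dynein, had 55.9, 50.4, 40.6 and 46.3 CPM with fracture and 33.8, 28.5 and 27.2 CPM without (0.7 ± 0.13; edgeR adjusted p = 0.222). Serpine2 (chr1:79794197-79861180), an inhibitor of thrombin and plasminogen activators, had 605, 638, 678 and 569 CPM with fracture, against 851, 974 and 754 CPM without (−0.47 ± 0.09). These genes and the others named for their p-values were taken from genes whose groups did not overlap, so that separation was part of their choice.

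Other genes that stood lower were Apbb2, which binds the amyloid precursor protein (−0.73 ± 0.14), the calcium channel gene Cacna1d (−0.79 ± 0.16), the phosphoinositide 3-kinase subunit gene Pik3r6 (−0.37 ± 0.08), Thsd1 (−1.98 ± 0.42), Abcg1, the ribosome maturation kinase gene Riok2 (−0.68 ± 0.15) and BC147527 (−0.92 ± 0.21). Those that stood higher were the poly(A)-binding gene Zc3h14 (1.335 ± 0.27), Mios, of the nutrient-sensing complex GATOR2 (0.86 ± 0.19), Olfml3, the polarity gene Pard3b (1.37 ± 0.3), Adamtsl2 (1.83 ± 0.4), the guanine nucleotide exchange factor gene Plekhg5 (1.95 ± 0.44), Fam160b2 (0.69 ± 0.16), the sodium-calcium exchanger gene Slc8a1 (0.92 ± 0.21) and Nr3c1. Their edgeR adjusted p ran from 0.222 to 0.289 in the 15-library fit. Of these genes, the 7-library fit called Zc3h14, Olfml3 and Slc8a1 higher and BC147527 lower. Exons of Aktip, Zc3h14, Slc8a1, Pard3b, Riok2 and Irf7 overlap genes on the opposite strand in GENCODE M21, and whether counting used strand is not given in the sources used here, so reads of these pairs cannot be told apart.

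**Figure D4:**
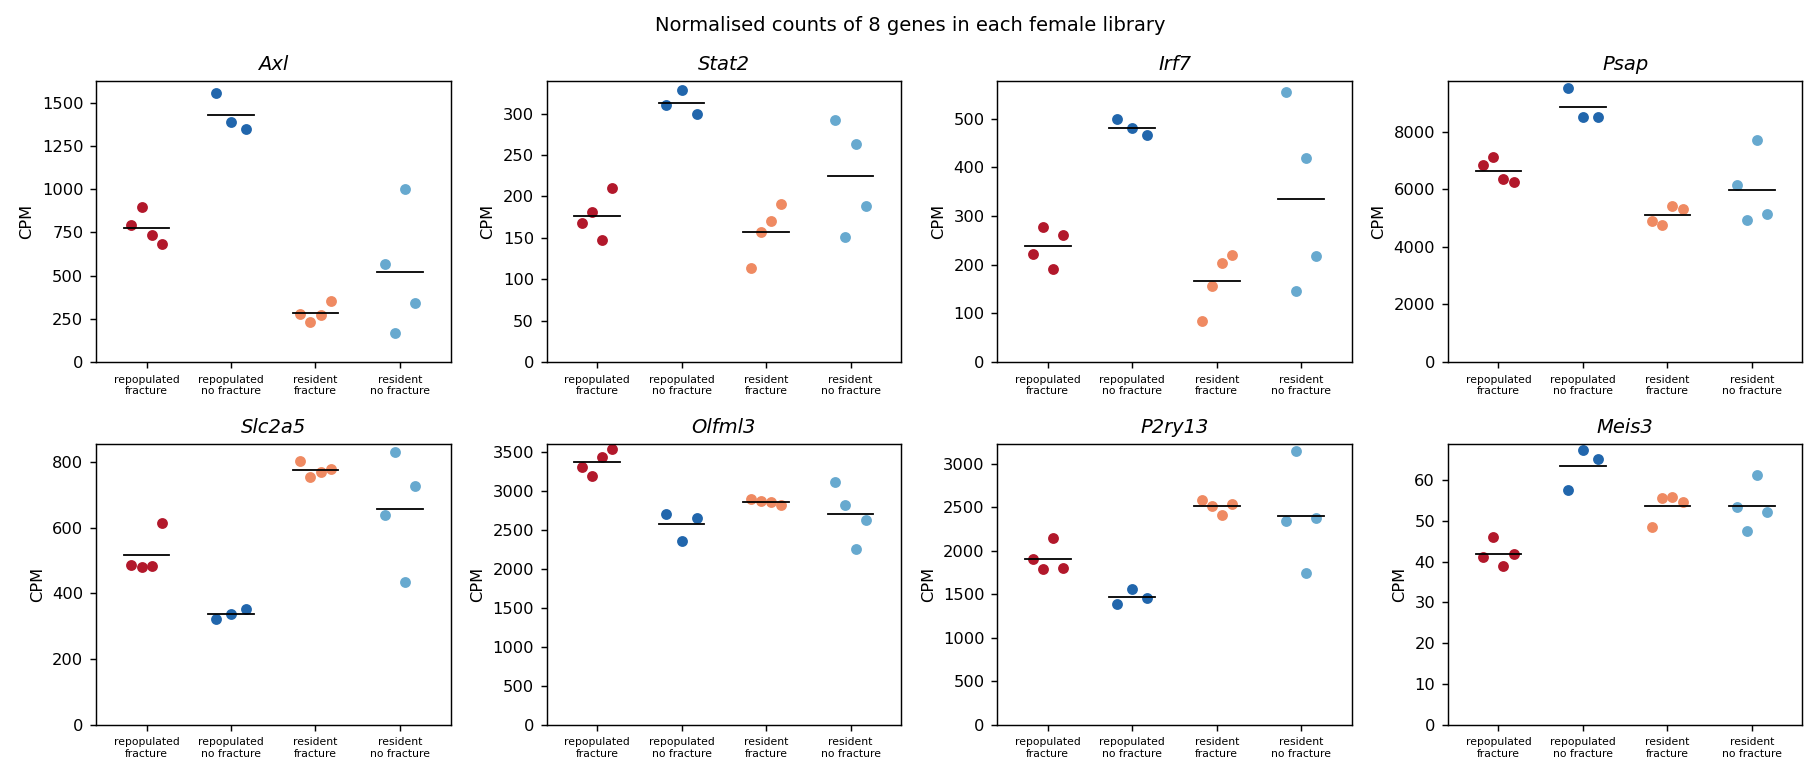
Normalised counts (CPM, y axes) of 8 genes in each female library by group (x axes), with lines at the group means. In repopulated libraries Axl, Stat2, Irf7, Psap and Meis3 are lower in all 4 fracture libraries and Slc2a5, Olfml3 and P2ry13 higher. In resident libraries the groups of Stat2, Irf7, Axl, Slc2a5, Olfml3 and P2ry13 overlap.

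The fracture effects in repopulated and resident microglia were also tested against each other. The test of the fracture effect in repopulated minus that in resident libraries called 0 of 13377 genes by edgeR (494 at an unadjusted p under 0.05, 3.69%) and 1 by DESeq2 (0.00748%). That 1 was Kbtbd12, at 0.906, 1.2, 1.74 and 2.37 CPM with fracture and at 0 in all 3 repopulated libraries without. The fracture effect in resident libraries alone also called 0 by edgeR (659 at an unadjusted p under 0.05, 4.93%) and 4 by DESeq2 (0.0299%). Meis3 differed by 0 ± 0.1 in resident microglia, Pik3r6 by 0.04 ± 0.07 and Cacna1d by 0 ± 0.15. The differences of effects with the smallest unadjusted p at 5 CPM or more were those of Nlrp1a, an inflammasome sensor (1.05), the adhesion scaffold gene Nedd9 (1.92), Meis3 (−0.6), the vesicle fusion gene Stx16 (0.5) and Pik3r6 (−0.41), all with an edgeR adjusted p of 1. Nedd9 had 17.1, 18.5, 15.4 and 16.9 CPM with fracture and 8.55, 7.95 and 7.27 CPM without, and was called higher in the 7-library fit.

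The 36 genes called lower and the 50 called higher in the 7-library fit had different patterns in libraries that fit did not use. Of the 36, all 36 were negative in resident microglia (median −0.81), where 52.1% of all genes were, and all 36 were negative in male repopulated microglia (median −0.67), where 48% of all genes were. At an unadjusted p under 0.05, 12 were lower in males, against 3.73% of all genes. The 36 include 11 of the interferon list, so their signs are not separate observations. Their mean log2 CPM overlapped in female resident libraries, at 5.92, 6.08, 6.56 and 6.68 with fracture and 7.67, 6.08, 7.66 and 6.7 without. In male repopulated libraries it was 5.48 to 7.37 with fracture and 7.27 and 7.45 without. Male resident libraries lay higher with fracture, at 4.67 to 5.42 against 4.37 to 4.79, with overlap. Of the 50, 48 were positive in resident microglia (median 0.62), where 47.9% of all genes were, and of 49 listed in males 28 were positive (median 0.04), where 52% of all genes were. At an unadjusted p under 0.05, 7 were higher in males, against 4.57% of all genes. Promoter windows with GAAANNGAAA made up 33.3% of those found for the lower genes and 1.79% of those for the higher genes. Of all windows, 3.44% held it. The lower genes include the 11 interferon genes and others of the Ifi and Oas families, so their share is no separate result. In males edgeR called 1 gene of 11999 (0.00833%, with 995, or 8.29%, at an unadjusted p under 0.05, and 58, or 0.483%, by DESeq2). It was Bckdhb, at 1.37 to 8.61 CPM with fracture and at 0 in both libraries without. The difference of the fracture effects, female minus male, called 0 of 11617 genes by edgeR (868 at an unadjusted p under 0.05, 7.47%) and 11 by DESeq2 (0.0947%). Sex cannot be told apart from the library kit.

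The 50 higher genes also varied among female libraries of 1 group. Their mean log2 CPM was 6.28, 6.07, 6.21 and 5.66 in repopulated libraries with fracture and 4.34, 4.4 and 4.82 in those without. Resident libraries ranged as widely, from 4.76 to 6.56 with fracture and from 4.48 to 6.35 without. Male libraries of all 4 groups lay between 6.38 and 6.59. An example is the histone deacetylase gene Hdac2, at 42.7, 36, 42.4 and 11.1 CPM with fracture and 4.4, 2.71 and 4.98 CPM without in repopulated, and at 64.4, 46.1, 12 and 2.15 CPM with fracture and 3.85, 2.95, 5.1 and 53.7 CPM without in resident libraries. Its level thus ran over the same range within each resident group as between the repopulated groups. What sets this range was not tested.

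**Figure D5:**
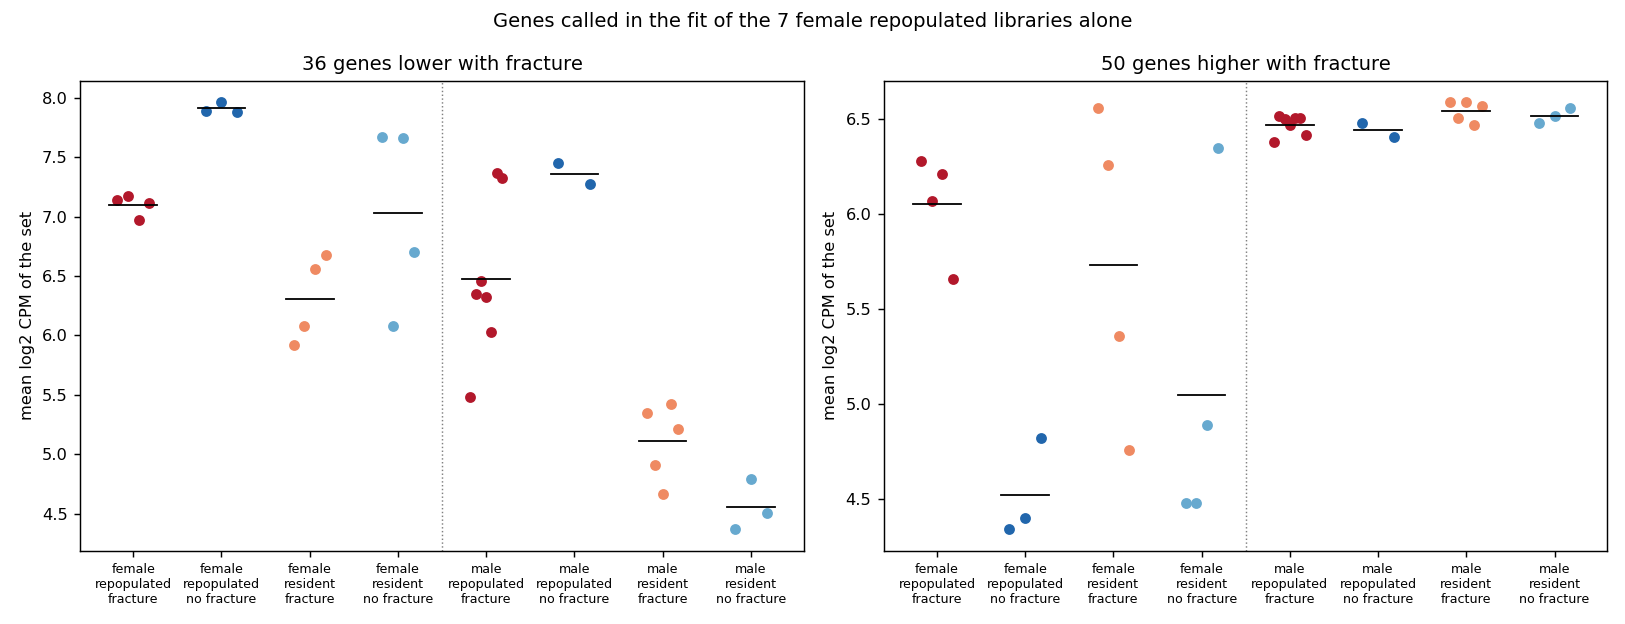
Mean log2 CPM (y axes) of the 36 genes called lower (left) and the 50 called higher (right) with fracture in the fit of the 7 female repopulated libraries, in every library by group (x axes), females left of the dotted line. The lower set reads 6.97 to 7.17 with fracture and 7.88 to 7.96 without in female repopulated libraries, and the higher set spans 4.34 to 6.56 over female but 6.38 to 6.59 over male libraries. For the lower set the groups overlap in female resident libraries (5.92 to 6.68 with fracture, 6.08 to 7.67 without). They also overlap in male repopulated libraries (5.48 to 7.37 and 7.27 to 7.45).

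Markers of other cells were mostly absent or low. The table listed 0 of 12 T and NK cell markers and 0 of 6 of red blood cells. Of 8 neutrophil markers only Csf3r, which microglia also express, was listed, and its level was 1129 to 1246 CPM with fracture and 1083 to 1217 CPM without. The 4 listed markers of border macrophages summed to 22.3 to 66 CPM with fracture and 6 to 40.8 CPM without, 3 B cell markers to 389 to 461 and 343 to 376 CPM, mostly Ighm, and 9 astrocyte markers to 131 to 226 and 131 to 168 CPM, mostly Slc1a3. The 4 neuron markers summed to 6.2 to 15.6 and 9.9 to 11.7 CPM, 3 endothelial ones to 23.7 to 32.5 and 24.1 to 41.1 CPM, and 7 oligodendrocyte ones, mostly Trf, to 2858 to 3083 and 2637 to 2933 CPM. Cspg4, the 1 marker of oligodendrocyte precursors listed, stood at 2.1 to 5.7 CPM with fracture and 0.8 to 10.4 CPM without. The 15 listed genes of macrophages of circulating origin had a median of −0.32, which was 0.07 without replicate 1 of the unfractured group, and without overlap 3 (20%) were lower, against 6.2% of all genes, and 1 (6.67%) higher, near the 6.81% of all genes. B cell sums were higher in every fracture library and monocyte sums lower, while those of the other lists overlapped.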

How the data were processed

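RNA of sorted spinal cord microglia was sequenced in 15 female and 17 male libraries, with kits that differed by sex per the labels' protocols. Both deposited tables hold estimated counts of transcripts, as whole numbers, and the female table lists only transcripts that reach 10 counts in 8 or more of its 15 libraries, so rarer transcripts are not tested. The submitters' processing notes name, without roles, the build GRCm38, STAR 2.7.6a, Trim Galore 0.6.7, RSEM 1.3.1, R 4.1.3, DESeq2 1.34.0, FastQC 0.11.9, cutadapt 3.4 and MultiQC 1.11. The 34865 transcripts of the female table were summed to 13377 genes by gene identifier. CPM is the count scaled with TMM factors, and log2 list levels are means over listed members.

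Fracture against no fracture was tested in edgeR 4.0.16 (R 4.3.3, limma 3.58.1; quasi-likelihood, filterByExpr, which removed 0 genes, Benjamini-Hochberg, 0.05) with the 4 female groups in 1 model. Male libraries were fitted separately (11999 genes), and the difference between sexes over the 25822 transcripts in both tables. Alternatives were DESeq2 1.42.0, other scalings, other filters, a replicate block, the 7 libraries alone, and leaving out each library. On simulated data for this comparison (13370 genes), 10, 58, 86 and 94% of 50 genes each with log2 changes of 0.5, 1, 2 and 3 were recovered, with 5 false calls. The changed genes had a mean of at least 5 CPM, and the simulation used 1 spread per gene for all groups.

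As 0 genes were called, named are the 10 genes with the smallest p per direction at 5 CPM or more without overlap, up to 4 members per list at an unadjusted p under 0.05, the 5 smallest p-values of repopulated minus resident, and a panel of 12. A few genes that this rule or a list names are not reported here. Genes named from the fit of the 7 libraries, and further list members given with their values, were chosen after their values were seen. Members and lists were chosen with earlier results of these data known. Gene positions are from GENCODE M21, which held 605 of 626 identifiers looked up, and promoter sequences from RefSeq.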

Additional observations from a re-analysis of the deposited data

Results flagged for a closer look

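In 130 values (99 named genes and 31 lists), each of the 4 fracture libraries was compared with the other 3, and 1 library stood far from the rest in 2 of them. Chance gives about 1 such case in 20 groups. Slc2a5 was 616 CPM in fracture replicate 4, against 480 to 488 CPM in the other 3. BC147527 was 34.8 CPM in fracture replicate 1, against 29.3 to 29.5 CPM in the others.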

How the results depend on the processing

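Under DESeq2 the calls were 90 for female repopulated, 1 for repopulated minus resident, 4 for resident, 58 for male repopulated and 11 for female minus male, against 0, 0, 0, 1 and 0 by edgeR. Female repopulated calls were 86 with only the 7 libraries. Male calls were 0 at 5 CPM or more, 0 with only the 9 repopulated libraries and 56 with a replicate block. In the fit of the 7 libraries calls were 628 by DESeq2, 204 at 5 CPM or more, 5 to 448 leaving out 1 library and 0 without both libraries numbered 1, alternatives chosen after seeing the data. Leaving out 1 library gave 0 to 0 calls for female repopulated, 0 to 1 for repopulated minus resident, 0 to 1 for resident, 1 to 29 for male and 0 to 11 for female minus male. The cause of these shifts was not tested.

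Trem2 turned to 0.0018 without both libraries numbered 1. Of the other settings of named genes, 1445 kept direction and side of the threshold and in 39 the gene passed it. Of list medians 459 moved by less than the spread between replicates and 5 by more. Same-numbered female repopulated libraries did not deviate together (r 0.00349, 0.00937 and −0.0179). For resident libraries r was −0.163, −0.0117, 0.0458 and −0.312. The main fit did not treat the numbers as pairs, and these values cannot exclude a pairing. With the replicate block, female repopulated calls stayed at 0 and the fit of the 7 libraries made 128, of which 55 were among the 86. At this depth and with 1 spread per gene for all groups, 10% of simulated log2 changes of 0.5 were recovered. In such data changes of that size are thus mostly not detected. In the real libraries the spread of some genes differed by group, so the simulated shares may not hold for them.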
